A study of Mus musculus with 12 samples.

Results

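The insulin-like growth factor (IGF) genes and the genes for IGF-binding proteins were followed in sorted mammary epithelial cells of the mouse. The set holds 10 genes of the 53735 symbols in the count table: the ligand genes Igf1 and Igf2, the receptor genes Igf1r and Igf2r, and the binding protein genes Igfbp2 to Igfbp7. They were taken by symbol, and all 10 were in the table. Live cells were sorted by their surface CD24 and CD49f, and bulk RNA was sequenced from basal and luminal cells of WT and MMTVRANK mice, with 3 libraries in each of 4 groups. MMTVRANK mice carry the receptor Rank under the mouse mammary tumour virus promoter, which is active in mammary epithelium, and WT mice carry no transgene in the labels. No treatment, age or strain is given in the labels. They leave unsaid whether the 3 libraries of a group came from different mice, and p-values therefore cover the spread among libraries, which may be technical. In bulk RNA, fewer cells of a type and less RNA per cell cannot be told apart.

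IGF1 and IGF2 are small secreted ligands that signal through the tyrosine kinase receptor encoded by Igf1r. The receptor encoded by Igf2r binds IGF2 and carries it to lysosomes without a kinase of its own, and it also carries lysosomal enzymes tagged with mannose 6-phosphate. The binding proteins hold IGFs in the extracellular space, can block or prolong their action, and are cut by proteases that set the ligand free. In the mammary gland IGF1 is known as a stromal and circulating signal downstream of growth hormone, and IGFBP5 is known for its rise when the gland involutes.

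Total counts lay between 12459547 and 15069578 per library, and 18236 genes passed the filter on low counts. Of the 10 members, 9 passed, and Igf2 did not. The 10 basal and myoepithelial marker genes summed to between 21850 and 27490 CPM (counts scaled to library size with TMM factors) in basal libraries and to between 54.8 and 471 CPM in luminal ones. The 10 luminal markers summed to between 7238 and 22173 CPM in luminal and between 344 and 579 CPM in basal libraries, so both lineage labels held by title. The title and the cell subtype field disagree for both WT replicate 2 libraries, and titles were used. Tnfrsf11a, the Rank gene, stood at 90.8 CPM in the library labelled WT luminal replicate 2 against 6.36 and 9.91 CPM in the other WT luminal libraries. In the library labelled WT basal replicate 2 it stood at 158 CPM, above the 129 CPM of MMTVRANK basal replicate 2, so the genotype comparisons were also fitted without both. With all libraries, Tnfrsf11a itself did not pass between genotypes. Its log2 fold change was 2.74 (SE 0.89, edgeR adjusted p = 0.224) in luminal and 1.36 (SE 0.85, edgeR adjusted p = 0.977) in basal cells. A member not called between genotypes is therefore not shown to be unchanged.

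Most members differed between the lineages. In WT, 8 of the 9 members tested differed between luminal and basal cells: Igf1r and Igfbp2 to Igfbp7 were lower in luminal cells and Igf2r was higher (edgeR quasi-likelihood test, adjusted p under 0.05, n = 3 per group). Of all genes tested, 38.1% were called in this comparison, 20.0% of all genes (3656) lower and 3284 genes higher in luminal cells. In MMTVRANK, 7 of the 9 differed, 6 lower and Igf2r higher, where 33.2% of all genes were called, 3106 genes lower and 2943 (16.1%) higher. The member called in WT and not in MMTVRANK was Igfbp6, whose log2 fold changes differed by 3.22 between genotypes (SE 1.58, edgeR adjusted p = 0.673). The median log2 fold change of the 9, luminal over basal, was −4.76 in WT and −3.45 in MMTVRANK, against −0.07 and 0.05 over all genes tested. Groups did not overlap for the same 8 members in both genotypes, as for 46.1% of all genes in WT and 54.5% in MMTVRANK. Basal libraries also held more RNA of fibroblast markers. These 10 genes summed to between 654 and 3364 CPM in basal and between 39.4 and 243 CPM in luminal libraries. By edgeR all 10 were called lower in luminal cells in WT, but only 3 in MMTVRANK (Pdgfra, Dcn and Fbn1), against 38.1% and 33.2% of all genes called. In MMTVRANK basal libraries Fbn1 and Dcn made up most of the sum, with means of 494 and 357 CPM. The part of such cells in the lineage differences of the members was not tested.

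**Figure D1:**
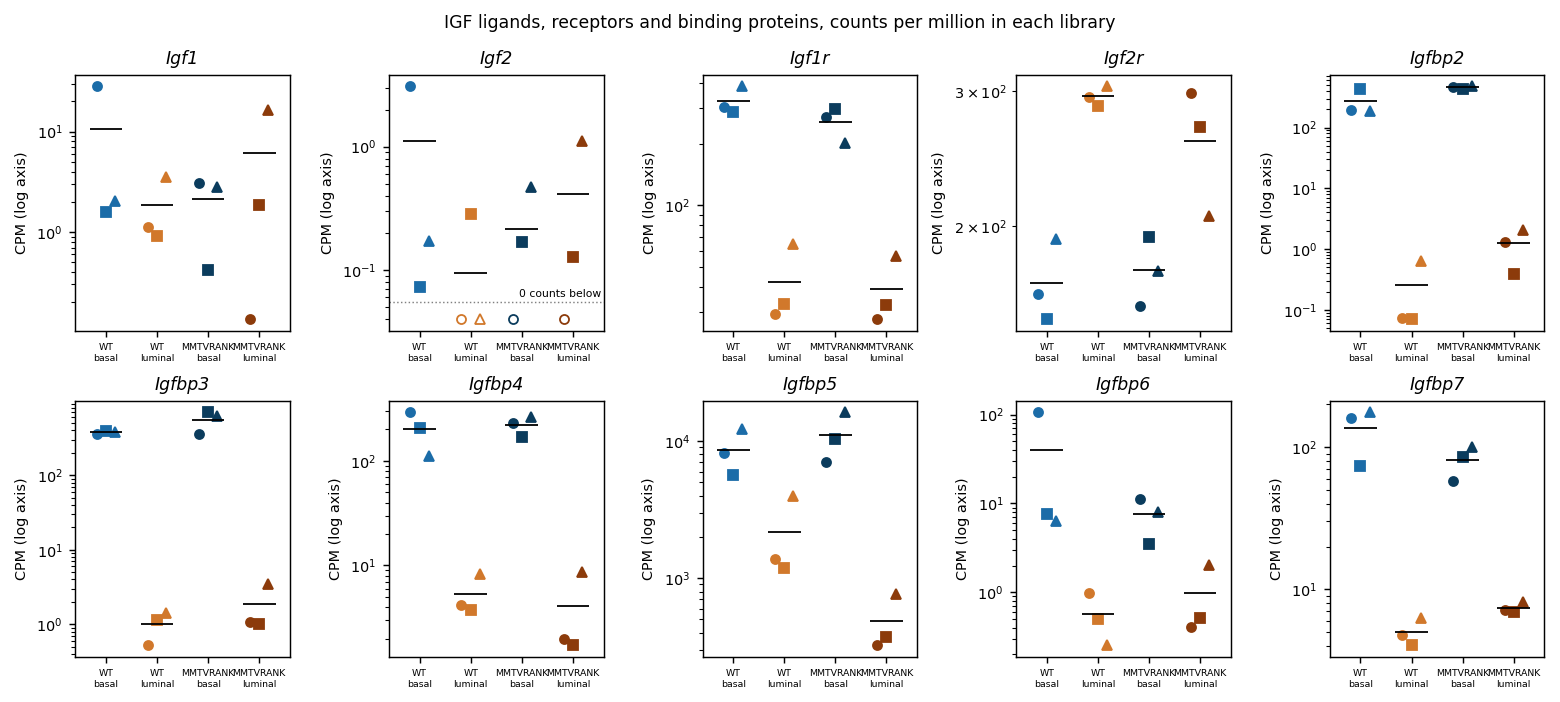
CPM on a log axis for each of the 10 members in the 4 groups, with circles, squares and triangles for replicates 1, 2 and 3 and a line at the group mean; open marks in the Igf2 panel are libraries with 0 counts. Igfbp2 to Igfbp5 and Igfbp7 lie far higher in basal libraries, Igf2r lies higher in luminal ones, and Igf1, Igf2 and Igfbp6 have single high libraries.

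Of the ligands, Igf1 (chromosome 10, 87858265 to 87937042, plus strand, GRCm38.p6, as are all coordinates here) was scarce in most libraries. WT basal replicates 1, 2 and 3 held 28.4, 1.58 and 2.05 CPM and WT luminal libraries 1.12, 0.922 and 3.49 CPM. MMTVRANK basal libraries held 3.10, 0.422 and 2.82 CPM and MMTVRANK luminal ones 0.136, 1.85 and 16.5 CPM. Only WT basal replicate 1 (367 counts) and MMTVRANK luminal replicate 3 (281 counts) were above 5 CPM, and all 4 groups overlapped.

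No comparison called Igf1. Luminal over basal, its log2 fold change was −2.52 (SE 1.49, edgeR adjusted p = 0.215) in WT and 1.54 (SE 1.45, edgeR adjusted p = 0.460) in MMTVRANK. MMTVRANK over WT, it was 1.73 (SE 1.46, edgeR adjusted p = 0.774) in luminal and −2.33 (SE 1.48, edgeR adjusted p = 0.977) in basal cells. Each sign hung on a single library: without WT basal replicate 1 the values were 0.04 for WT lineages and 0.23 for basal genotypes, and without MMTVRANK luminal replicate 3 they were −1.07 for MMTVRANK lineages and −0.92 for luminal genotypes.

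Both of these libraries also stood apart in markers of other cell types. WT basal replicate 1 had 3364 CPM summed over 10 fibroblast markers, against 654 and 1016 CPM in the other WT basal libraries and between 1029 and 1150 CPM in MMTVRANK basal ones. MMTVRANK luminal replicate 3 had 484 CPM over 13 leukocyte markers and 243 CPM over the fibroblast markers. No other luminal library passed 138 CPM for the leukocyte or 139 CPM for the fibroblast markers. Of the 12 leukocyte markers tested, only Lcp1 was called between lineages, where 38.1% of all genes were called in WT and 33.2% in MMTVRANK. Lcp1 was higher in luminal cells, with log2 fold changes of 3.99 in WT and 3.72 in MMTVRANK, so leukocyte sums are compared within a lineage only. Of the basal libraries, MMTVRANK basal replicate 3 had 175 CPM over the leukocyte markers, where no other passed 23.6 CPM. Igf1 in that library stood at 2.82 CPM, between the 3.10 and 0.422 CPM of MMTVRANK basal replicates 1 and 2. None of the 10 fibroblast markers was at 0 in any WT library, and between 0 and 2 were at 0 in MMTVRANK luminal libraries. Per library, between 0 and 5 of the 13 leukocyte markers were at 0. The part of such cells in the Igf1 values was not tested.

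Igf2, the second ligand and an imprinted gene expressed from the paternal allele in most tissues, had few counts (chromosome 7, 142650766 to 142666816, minus strand). It had 40, 1 and 2 counts in WT basal replicates 1, 2 and 3 and 0, 4 and 0 in WT luminal ones. MMTVRANK basal libraries had 0, 2 and 6 counts and MMTVRANK luminal ones 0, 2 and 19. Its highest counts fell in the same 2 libraries as those of Igf1. A count of 0 allows up to 3 counts, or between 0.191 and 0.227 CPM in the 4 libraries at 0, for counting error only. Of its exon length, 62.8% is shared with the gene model RP23-209O22.2 on the same strand, which had 0 counts in all libraries. Counting was by largest exon overlap, and a read inside the shared part overlaps both models equally. Such reads may have been given to neither gene, so the Igf2 counts may be too low. This loss was not tested.

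**Figure D2:**
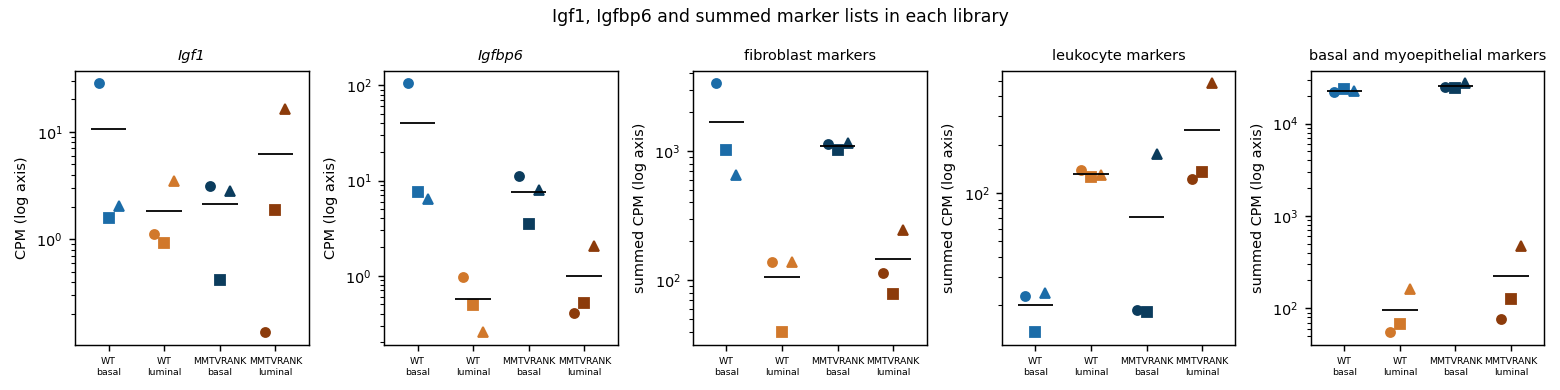
Igf1 and Igfbp6 in CPM and the summed CPM of fibroblast, leukocyte and basal markers, all on log axes, with circles, squares and triangles for replicates 1, 2 and 3 and a line at the group mean. WT basal replicate 1 is the highest library for Igf1, Igfbp6 and the fibroblast markers, and MMTVRANK luminal replicate 3 is the highest luminal library for Igf1, Igfbp6, the leukocyte markers and the basal markers.

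The receptors ran in opposite directions between the lineages. Igf1r (chromosome 7, 67952827 to 68233668, plus strand) stood at 302, 286 and 384 CPM in WT basal and at 29.4, 33.0 and 64.6 CPM in WT luminal replicates 1, 2 and 3. In MMTVRANK the values were 271, 298 and 201 CPM in basal and 27.8, 32.4 and 56.8 CPM in luminal libraries. Every basal library was above every luminal one, with replicate 3 the highest luminal library in both genotypes. Luminal over basal, the log2 fold change was −2.93 (SE 0.35, edgeR adjusted p = 5.08e-05) in WT and −2.72 (SE 0.34, edgeR adjusted p = 8.77e-05) in MMTVRANK.

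Igf2r (chromosome 17, 12682406 to 12769664, minus strand) stood at 163, 151 and 192 CPM in WT basal and at 295, 287 and 305 CPM in WT luminal replicates 1, 2 and 3. In MMTVRANK the values were 157, 194 and 175 CPM in basal and 299, 269 and 206 CPM in luminal libraries. Every luminal library was above every basal one, by a narrow gap in MMTVRANK, where luminal replicate 3 was lowest. The log2 fold change was 0.81 (SE 0.16, edgeR adjusted p = 0.00189) in WT and 0.56 (SE 0.16, edgeR adjusted p = 0.0179) in MMTVRANK. The MMTVRANK call ended without basal replicate 1 or 3 or luminal replicate 1 or 2, with adjusted p of 0.0784, 0.0528, 0.104 and 0.0730, while the values themselves were 0.49, 0.56, 0.44 and 0.53. It also ended with no filter on low counts, at 0.58 (adjusted p = 0.0542). Per kilobase of exon (RPKM), Igf2r stood at 31.3 ± 0.956 and Igf1r at 2.52 ± 1.15 in WT luminal cells, while in WT basal cells they stood at 17.9 ± 2.23 and 19.3 ± 3.13 (SD, n = 3) with overlapping libraries.

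Neither receptor was called between genotypes. MMTVRANK over WT, Igf1r had a log2 fold change of −0.12 (SE 0.33) in luminal and −0.34 (SE 0.32) in basal cells, and Igf2r −0.20 (SE 0.16) and 0.05 (SE 0.16), with edgeR adjusted p between 0.762 and 1.00.

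The binding proteins share a cysteine-rich N-terminal end that takes part in holding the ligand. In the N-terminal end of IGFBP2 to IGFBP5 lies a short run known as the IGFBP motif, which reads glycine, cysteine, glycine, cysteine, cysteine, any pair of residues and cysteine. Its coding DNA is shown because it sets Igfbp2 to Igfbp5 apart from the other members measured. A search of the longest coding sequence of 21814 genes (GENCODE M21, GRCm38) found it in 18 genes, 0.0825% of them, and of the 6 binding protein genes here in these 4, each in exon 1. Igfbp6 and Igfbp7 did not hold it in this form, and IGFBP7 is known to bind IGFs weakly. The 24 bases of the motif are in capitals, 5′ to 3′ on the coding strand, with 6 bases on each side.
Igfbp2, chr1:72824772-72824807, plus strand: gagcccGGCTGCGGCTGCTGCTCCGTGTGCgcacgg
Igfbp3, chr11:7213560-7213595, minus strand: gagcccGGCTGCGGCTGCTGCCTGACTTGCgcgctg
Igfbp4, chr11:99041644-99041679, plus strand: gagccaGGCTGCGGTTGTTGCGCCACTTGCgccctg
Igfbp5, chr1:72873960-72873995, minus strand: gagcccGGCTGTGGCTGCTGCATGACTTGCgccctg

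Igfbp5 was the most abundant member per kilobase in all 12 libraries (chromosome 1, 72857932 to 72874884, minus strand). WT basal replicates 1, 2 and 3 held 8131, 5615 and 12219 CPM and MMTVRANK basal ones 7041, 10308 and 16186 CPM. Its RPKM ranked between place 8 and place 24 of the 18236 genes tested in the 6 basal libraries. In WT luminal libraries it stood at 1377, 1184 and 3979 CPM, at places 137, 132 and 35, and in MMTVRANK luminal ones at 324, 370 and 762 CPM, at places 620, 473 and 189. Replicate 3 was the highest library in all 4 groups. All 6 luminal libraries were below all 6 basal ones.

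In WT the log2 fold change of Igfbp5, luminal over basal, was −1.99 (SE 0.53, edgeR adjusted p = 0.0123), the least negative of the 6 binding protein genes. In MMTVRANK it was −4.53 (SE 0.60, edgeR adjusted p = 0.000145). Without WT luminal replicate 1 the WT call ended (adjusted p = 0.0580), and without WT luminal replicate 3 the value was −2.74. The difference between these values, −2.54 (SE 0.74, unadjusted p = 0.00539), did not pass over all genes (edgeR adjusted p = 0.447). With the replicate number as a block the difference was −2.43 (adjusted p = 0.107).

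Igfbp2 (chromosome 1, 72824503 to 72852474, plus strand) showed the widest gap between lineages. WT basal replicates 1, 2 and 3 held 193, 424 and 187 CPM and MMTVRANK basal ones 471, 431 and 479 CPM. WT luminal libraries had 1, 1 and 10 counts (0.0748, 0.0709 and 0.635 CPM) and MMTVRANK luminal ones 19, 6 and 35 counts (1.29, 0.384 and 2.05 CPM). The log2 fold change, luminal over basal, was −9.89 (SE 0.74, edgeR adjusted p = 3.81e-06) in WT and −8.51 (SE 0.66, edgeR adjusted p = 4.30e-06) in MMTVRANK. With so few luminal counts the size was loose, at −11.66 without WT luminal replicate 3, −8.95 without both WT replicate 2 libraries and −9.10 in MMTVRANK without luminal replicate 3. Igfbp2 and Igfbp5 are neighbours, read toward each other with 5457 bases between them.

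Igfbp3 (chromosome 11, 7206086 to 7213923, minus strand), whose protein is the main IGF carrier of serum, was also higher in basal libraries. Basal libraries held 354, 395 and 382 CPM in WT and 357, 698 and 623 CPM in MMTVRANK. Luminal libraries held 0.524, 1.14 and 1.40 CPM in WT and 1.09, 1.02 and 3.46 CPM in MMTVRANK. The lineages were separated by more than 100-fold in every library. The log2 fold change was −8.50 (SE 0.55, edgeR adjusted p = 1.12e-06) in WT and −8.21 (SE 0.53, edgeR adjusted p = 1.03e-06) in MMTVRANK, the latter −9.04 without luminal replicate 3. Igfbp1, which lies 3539 bases from Igfbp3, had 9 counts or fewer in each library and was not tested.

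Igfbp4 (chromosome 11, 99041244 to 99054392, plus strand) encodes the binding protein cut by the protease pappalysin. It stood at 291, 208 and 111 CPM in WT basal and at 231, 169 and 265 CPM in MMTVRANK basal libraries. Luminal libraries held 4.19, 3.76 and 8.20 CPM in WT and 1.97, 1.73 and 8.67 CPM in MMTVRANK, with replicate 3 highest in both. The log2 fold change was −5.23 (SE 0.66, edgeR adjusted p = 0.000121) in WT and −5.73 (SE 0.67, edgeR adjusted p = 7.98e-05) in MMTVRANK, the latter −6.90 without luminal replicate 3. Fibroblast markers summed to 3364, 1016 and 654 CPM in WT basal and 1131, 1029 and 1150 CPM in MMTVRANK basal replicates 1, 2 and 3. In luminal libraries they summed to 139, 39.4 and 138 CPM in WT and 114, 78.4 and 243 CPM in MMTVRANK. Their part in the Igfbp4 level was not tested.

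Igfbp7 (chromosome 5, 77349240 to 77408041, minus strand), whose secreted product is known as a vascular and senescence-associated protein, stood at 161, 74.3 and 175 CPM in WT basal and at 58.0, 85.6 and 101 CPM in MMTVRANK basal libraries. Luminal libraries held 4.79, 4.04 and 6.29 CPM in WT and 7.15, 6.91 and 8.20 CPM in MMTVRANK. The log2 fold change was −4.76 (SE 0.35, edgeR adjusted p = 1.40e-06) in WT and −3.45 (SE 0.33, edgeR adjusted p = 8.38e-06) in MMTVRANK. Endothelial markers summed to between 97.9 and 379 CPM in basal and between 8.30 and 29.9 CPM in luminal libraries; their part in the Igfbp7 level was not tested. Of its exon length, 7.03% overlaps Polr2b on the other strand, and counting did not use strand.

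Igfbp6 (chromosome 15, 102144362 to 102149511, plus strand), whose protein prefers IGF2 to IGF1, was low outside 1 library. WT basal replicate 1 held 106 CPM, against 7.56 and 6.33 CPM in the other WT basal libraries and 11.2, 3.46 and 7.91 CPM in MMTVRANK basal ones. Luminal libraries held 0.973, 0.497 and 0.254 CPM in WT and 0.408, 0.511 and 2.05 CPM in MMTVRANK. Its high library is again WT basal replicate 1, where the fibroblast markers summed to 3364 CPM, and their part in the value was not tested. The log2 fold change, luminal over basal, was −6.11 (SE 1.28, edgeR adjusted p = 0.00334) in WT, and −3.58 (adjusted p = 0.00561) without WT basal replicate 1. By limma-voom the WT value was −5.05 and did not pass (adjusted p = 0.0734). In MMTVRANK it was −2.90 (SE 1.11, edgeR adjusted p = 0.0686), short of the threshold. DESeq2 called it in MMTVRANK at −2.98 (adjusted p = 0.00590), and edgeR called it with only the groups compared (adjusted p = 0.0138), with no filter on low counts, or without any 1 WT basal library (adjusted p between 0.0103 and 0.0490), so the call that separates the genotypes depends on the tool and settings.

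**Figure D3:**
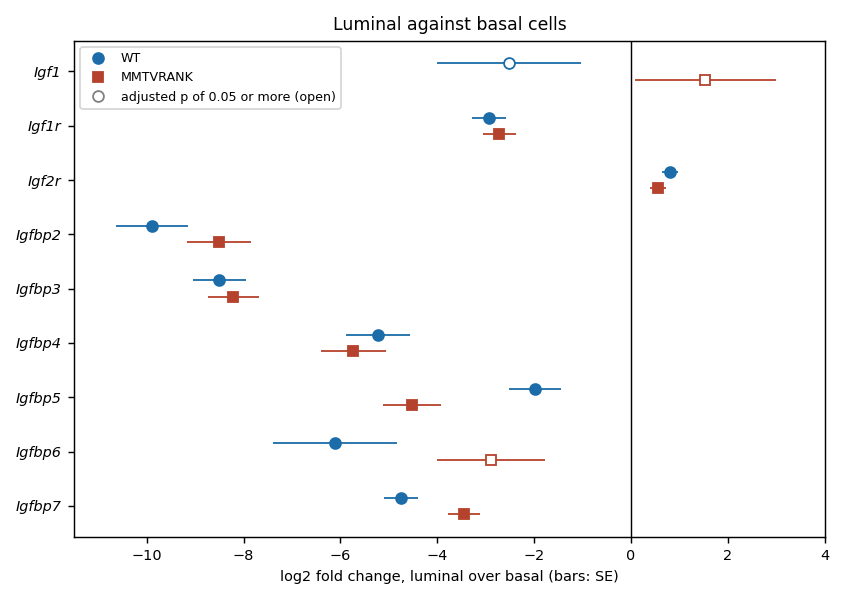
Log2 fold change, luminal over basal, of the 9 members tested, with SE bars, in WT (circles) and MMTVRANK (squares); open marks did not pass an adjusted p of 0.05. Igf2r alone has filled marks to the right of 0, Igfbp2 and Igfbp3 lie furthest to the left, and the 2 values of Igfbp5 are −1.99 and −4.53.

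The luminal values were set beside the basal markers measured in the same luminal libraries. As a percent of the mean basal level of the same genotype, the summed basal markers stood at 0.242, 0.299 and 0.719% in WT luminal replicates 1, 2 and 3 and at 0.303, 0.494 and 1.84% in MMTVRANK ones. Igfbp2 stood at 0.0279, 0.0265 and 0.237% and at 0.281, 0.0833 and 0.446%, below the summed markers in all 6 libraries. Igfbp3 was below the summed markers in 5 libraries and at 0.301 against 0.299% in WT luminal replicate 2. Igfbp5 was well above them, at 15.9, 13.7 and 46.0% in WT and 2.90, 3.31 and 6.82% in MMTVRANK, and so was Igf1r, between 9.08 and 22.1%. The highest single basal marker, picked in each library by itself, stood at 7.8, 7.51 and 27.9% in WT and at 2.94, 10.4 and 26.3% in MMTVRANK luminal replicates 1, 2 and 3. Igfbp5 was above that value in every WT luminal library and below it in every MMTVRANK one, narrowly in replicate 1 (2.90 against 2.94%). The median basal marker stood at 0.113, 0.261 and 0.495% in WT and at 0.438, 0.562 and 2.05% in MMTVRANK luminal replicates 1, 2 and 3. Igfbp5 was above the median marker in all 6 libraries. The share of basal cells in the luminal values was not tested.

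Per kilobase, the order of members in WT basal cells was Igfbp5 (1441 ± 555 RPKM), Igfbp2 (145 ± 73.1), Igfbp3 (120 ± 6.71), Igfbp7 (113 ± 45.3), Igfbp4 (46.0 ± 20.4), Igfbp6 (35.8 ± 51.2), Igf1r, Igf2r, Igf1 and Igf2 (SD, n = 3). Among neighbours in that order, Igfbp5 over Igfbp2 and Igf2r over Igf1 had ranges over libraries that did not overlap, and the other pairs overlapped. In WT luminal cells Igfbp5 led at 363 ± 260 RPKM, followed by Igf2r and then Igfbp7 at 4.17 ± 0.946 RPKM, and the ranges of those first 3 did not overlap. In MMTVRANK luminal cells the same 3 led, with Igfbp5 at 80.8 ± 40.1, Igf2r at 27.3 ± 5.02 and Igfbp7 at 6.14 ± 0.570 RPKM, again with no overlap.

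Igfbp5 held between 66.5 and 83.6% of the summed RPKM of Igfbp2 to Igfbp7 in WT basal and between 71.0 and 81.6% in MMTVRANK basal libraries. It held between 97.5 and 98.8% in WT luminal and between 87.4 and 90.8% in MMTVRANK luminal libraries, ranges that do not overlap. The summed level in luminal cells lay between 202 and 671 RPKM in WT and between 61.8 and 140 RPKM in MMTVRANK. Igfbp7 held between 0.776 and 1.68% in WT luminal and between 4.86 and 9.57% in MMTVRANK luminal libraries. The shares within a library are bound together, so a lower Igfbp5 level raises the share of every other gene. Igfbp7 itself had a mean of 4.17 RPKM in WT luminal and 6.135 RPKM in MMTVRANK luminal cells, and was not called (edgeR adjusted p = 0.562). The shares are given as a description with no test.

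**Figure D4:**
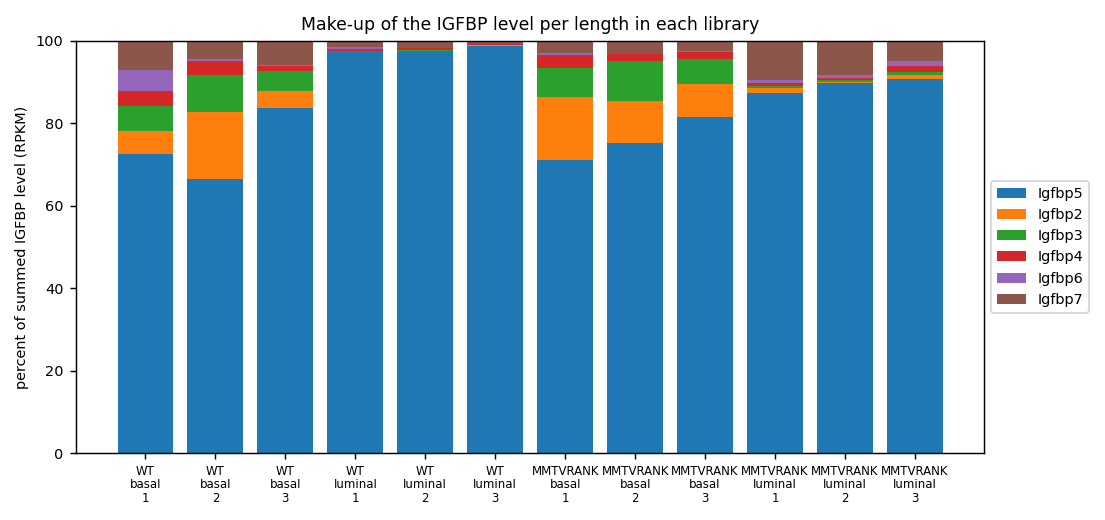
Percent of the summed RPKM of Igfbp2 to Igfbp7 held by each gene, 1 bar per library. Igfbp5 fills at least 97.5% of each WT luminal bar and between 66.5 and 90.8% of the other bars, where Igfbp2 and Igfbp3 show in basal and Igfbp7 in MMTVRANK luminal libraries.

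The sequence just before the start site is shown for the most abundant member, the pair with the widest gaps and the only member called higher in luminal cells. Each is the 150 bases before the start site nearest to the start of the deposited gene model (RefSeq, GRCm38.p6), 5′ to 3′ on the gene's strand. Capitals mark any match on either strand to 4 motifs searched. The TATA box was searched as TATAAA and the GC box as GGGCGG. The motif of TEAD factors was searched as GGAATG. That of AP-1 was searched as TGANTCA. Of 32851 such windows in the RefSeq table, 7.57% held the TATA box, 28.6% the GC box, 7.59% the TEAD motif and 4.24% the AP-1 motif.
Igfbp5, chr1:72874866-72875015, minus strand: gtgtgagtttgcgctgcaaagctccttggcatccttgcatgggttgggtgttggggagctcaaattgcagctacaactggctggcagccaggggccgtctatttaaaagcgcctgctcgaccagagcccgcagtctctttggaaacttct
Igfbp2, chr1:72824330-72824479, plus strand: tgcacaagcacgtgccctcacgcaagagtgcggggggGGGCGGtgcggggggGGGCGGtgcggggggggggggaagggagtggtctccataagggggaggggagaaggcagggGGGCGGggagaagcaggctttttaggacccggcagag
Igfbp3, chr11:7213924-7214073, minus strand: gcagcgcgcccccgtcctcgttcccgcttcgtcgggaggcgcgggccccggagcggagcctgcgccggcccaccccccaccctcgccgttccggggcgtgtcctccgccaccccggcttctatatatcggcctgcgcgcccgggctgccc
Igf2r, chr17:12769707-12769856, minus strand: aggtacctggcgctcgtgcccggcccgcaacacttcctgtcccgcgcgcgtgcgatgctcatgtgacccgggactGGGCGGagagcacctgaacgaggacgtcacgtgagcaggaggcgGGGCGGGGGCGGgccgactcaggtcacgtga
Igfbp2 and Igf2r each held 3 GC boxes. A part of these motifs in the lineage differences was not tested. Igfbp3 and Igfbp5 held none of the 4 motifs in these letters. The windows were 72.0% G and C for Igfbp2, 78.7% for Igfbp3 and 70.7% for Igf2r, but 55.3% for Igfbp5.

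Between genotypes, Igfbp5 had the smallest p of the members in luminal cells. In luminal cells, 1 member (Igfbp5) passed by edgeR with the replicate number as a block, as given below. With no block 0 of the 9 passed, where 0.252% of all genes were called (0.159% lower and 0.0932% higher). Igfbp5 and Igfbp2 had an unadjusted p under 0.05, as had 2183 of the 18236 genes tested. DESeq2 called both, where it called 4.39% of all genes, and limma-voom called 0 members. All 3 MMTVRANK luminal libraries lay below all 3 WT ones for Igfbp5, with a log2 fold change of −2.17 (SE 0.54, unadjusted p = 0.00185, edgeR adjusted p = 0.120). Same-numbered luminal libraries deviated together. With the replicate number as a block, which called 103 genes against 46 without it, the value was −2.07 and passed (edgeR adjusted p = 0.0141). It was −2.22 by DESeq2 and passed (adjusted p = 0.000939). By limma-voom it was −2.05 and did not pass (adjusted p = 0.103). Without both WT replicate 2 libraries it was −2.46 (adjusted p = 0.0912), and without WT luminal replicate 3 it was −1.45 (adjusted p = 0.262). The 12 proliferation genes, 1 of which passed between luminal genotypes, summed to between 793 and 1813 CPM in MMTVRANK luminal and between 126 and 375 CPM in WT luminal libraries. The 10 luminal markers summed to 13338, 11725 and 7238 CPM in MMTVRANK luminal and to 22173, 16392 and 15648 CPM in WT luminal replicates 1, 2 and 3, without overlap, and 9 of the 10 had a negative log2 fold change. Of the 10 basal markers, 9 had a positive one, with sums between 77.4 and 471 CPM against 54.8 to 163 CPM, and 0 markers of either list passed. The part of these 3 lists in the Igfbp5 values was not tested.

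Igfbp2 pointed the other way in luminal cells, from 12 counts in all over the WT libraries to 60 over the MMTVRANK ones, a log2 fold change of 2.15 (SE 0.79, unadjusted p = 0.0200, edgeR adjusted p = 0.285). WT luminal replicate 3, at 0.635 CPM, was above MMTVRANK luminal replicate 2, at 0.384 CPM, so the groups overlapped. DESeq2 gave 2.15 and passed (adjusted p = 0.0352), and without MMTVRANK luminal replicate 3, where the basal markers summed to 471 CPM against 77.4 and 126 CPM in the other MMTVRANK luminal libraries, edgeR gave 1.53 (adjusted p = 0.882). Without WT luminal replicate 3, which held 10 of the 12 WT counts, the value was 3.90 (adjusted p = 0.220). Igfbp7 had 0.55 (SE 0.32, edgeR adjusted p = 0.562), with all MMTVRANK luminal libraries above all WT ones. Igfbp5 and Igfbp7 were the only members whose luminal groups did not overlap, which held for 16.9% of all genes tested. Igfbp3 had 0.86 (SE 0.51), Igfbp4 −0.38 (SE 0.60) and Igfbp6 0.81 (SE 1.21). Their edgeR adjusted p lay between 0.583 and 0.915, and each of these 3 turned sign without a single luminal library.

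In basal cells 0 of the 9 members passed, where 0.00548% of all genes were called by edgeR, a single gene, and DESeq2 and limma-voom called 0 members as well. The members with an unadjusted p under 0.05 were 2, where 5.41% of all genes had one, and DESeq2 called 0.362% of all genes. Igfbp7 had a log2 fold change of −0.75 (SE 0.30, unadjusted p = 0.0258, edgeR adjusted p = 0.860), and Igfbp6 had −2.40 (SE 1.04, unadjusted p = 0.0409, edgeR adjusted p = 0.898). The Igfbp6 value was 0.13 without WT basal replicate 1. Igfbp2 had 0.78 (SE 0.46, edgeR adjusted p = 0.977), with every MMTVRANK basal library above every WT one, the only such member, where 11.1% of all genes had groups apart. Without both WT replicate 2 libraries the Igfbp2 value was 1.28 (adjusted p = 0.610), since WT basal replicate 2 stood at 424 CPM against 193 and 187 CPM. Igfbp3, Igfbp4 and Igfbp5 had 0.57 (SE 0.38), 0.13 (SE 0.54) and 0.37 (SE 0.52), with edgeR adjusted p of 0.977 or more.

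The difference of the genotype effects, luminal minus basal, was tested by itself and 0 of the 9 members passed, where 0.00548% of all genes were called. Besides Igfbp5 at −2.54, Igfbp7 had an unadjusted p under 0.05, as had 7.73% of all genes, with a difference of 1.30 (SE 0.43, unadjusted p = 0.0107, edgeR adjusted p = 0.524). DESeq2 called 1 member, Igfbp5 at −2.56 (adjusted p = 0.0395), where it called 0.768% of all genes, and limma-voom called 0. Without both WT replicate 2 libraries, 0 members passed in either genotype comparison or for this difference. The luminal values were then 1.73 for Igfbp2, 0.42 for Igfbp7, 0.93 for Igfbp3, −0.58 for Igfbp4 and 0.73 for Igfbp6. The basal values were −1.04 for Igfbp7 and −2.89 for Igfbp6, and the differences were −2.61 for Igfbp5 and 1.46 for Igfbp7.

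**Figure D5:**
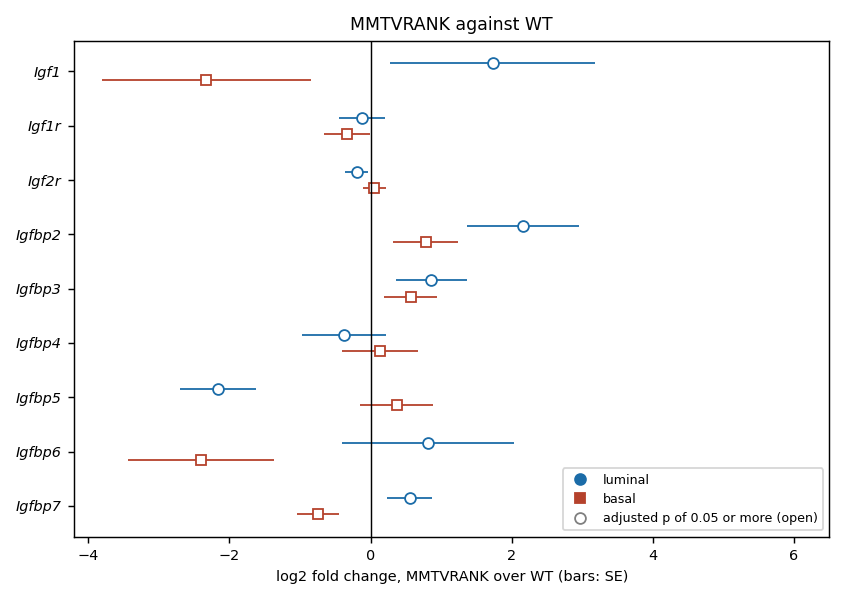
Log2 fold change, MMTVRANK over WT, of the 9 members tested, with SE bars, in luminal (circles) and basal cells (squares). All marks are open, since none passed an adjusted p of 0.05 in the fit without the replicate block. Igfbp5 in luminal cells lies at −2.17, the Igfbp2 values are 2.15 and 0.78, and Igf1 and Igfbp6 have the widest bars.

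Among the proteases and carriers of the pathway, 13 of 16 genes were tested. In WT luminal against basal cells 3 were higher (Stc2, Igfals and Esm1, the last pair named after their values were seen) and 6 lower, and in MMTVRANK 3 were higher and 5 lower, against 38.1% and 33.2% of all genes called. Their median was −1.10 on the log2 scale in both, against −0.07 and 0.05 over all genes. Pappa, the gene for pappalysin, the protease that cuts IGFBP4, went with its substrate: it stood at 335 ± 50.9 CPM in WT basal and 3.78 ± 1.65 CPM in WT luminal cells (SD, n = 3), which is −6.46 as a log2 fold change (SE 0.36, edgeR adjusted p = 2.95e-07). Stc2, the gene for stanniocalcin 2, which is known to inhibit pappalysin, ran opposite, at 6.30 ± 0.561 CPM in basal and 1094 ± 614 CPM in luminal WT cells (7.44, SE 0.77, edgeR adjusted p = 3.33e-05). Htra1, a secreted protease, had −6.68 and Ctgf, a matrix protein of the CCN family, −7.09, where 23.2% of the Ctgf exon length overlaps an opposite gene model. Between genotypes 0 of 13 passed by edgeR in either lineage, 4 had an unadjusted p under 0.05 in luminal and 0 in basal cells (2183 and 986 of all genes tested), and DESeq2 called 2 in luminal cells (4.39% of all genes). The smallest p in luminal cells belonged to Wisp2 at −3.95 (SE 1.22, edgeR adjusted p = 0.193) and Ctgf at 1.77 (SE 0.60, edgeR adjusted p = 0.238), and in basal cells to Pappa at 0.42 and Ctgf at 0.78, both with edgeR adjusted p = 0.977.

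Downstream of the receptors, 29 of 30 genes of the insulin receptor, adaptor and PI3K-AKT-FOXO list were tested. In WT, 3 were higher and 7 lower in luminal cells, and in MMTVRANK 2 were higher and 8 lower, with medians of −0.04 and −0.12. These 10 of 29 in each genotype are near the 38.1% and 33.2% of all genes called, so the count is no result about the list. Irs2, an adaptor that docks to IGF and insulin receptors, stood at 747 ± 29.2 CPM in basal and 111 ± 29.4 CPM in luminal WT cells (−2.75, SE 0.36, edgeR adjusted p = 0.000104). Phlda3, which restrains AKT, had −3.13, the transcription factor gene Foxo1 −1.44 and the PI3K subunit gene Pik3r2 −0.89. Between genotypes 0 of 29 passed by edgeR in either lineage, 5 had an unadjusted p under 0.05 in luminal and 3 in basal cells, against the same shares of all genes, and DESeq2 called 2 in luminal cells. Irs1, the companion adaptor, had −1.14 (SE 0.33, edgeR adjusted p = 0.165) and Pik3r3 0.79 (SE 0.24, edgeR adjusted p = 0.190) in luminal cells, where 30.9% of the Irs1 exon length overlaps an opposite gene model with 0 counts. In basal cells the smallest p belonged to Pik3r1 at 0.53 and Foxo3 at 0.41, both with edgeR adjusted p of 0.897 or more.

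All 9 genes of the growth hormone list were tested. In WT luminal against basal cells 4 were higher (Prlr, Jak2, Stat5a and Stat5b) and 3 lower (Ghr, Socs1 and Socs3), some of them named after their values were seen, and in MMTVRANK 4 were higher and 2 lower, against 38.1% and 33.2% of all genes called. Prlr, the prolactin receptor gene, stood at 21.4 ± 7.19 CPM in basal and 3602 ± 1069 CPM in luminal WT cells (7.40, SE 0.69, edgeR adjusted p = 1.46e-05), while Ghr, the growth hormone receptor gene, went from 52.2 ± 13.7 to 21.7 ± 4.91 CPM (−1.27, SE 0.25, edgeR adjusted p = 0.00190). The kinase gene Jak2 had 1.31, Stat5b 1.05 and the cytokine signalling inhibitor gene Socs1 −3.16. Between genotypes 0 of 9 passed by edgeR or DESeq2 in either lineage. In luminal cells 4 had an unadjusted edgeR p under 0.05, as had 2183 of the 18236 genes tested. In basal cells 1 had one, as had 986 of the 18236. The smallest p belonged to Jak2 (−0.41) and Socs1 (1.35) in luminal and to Prlr (−1.21) and Stat5a (−0.61) in basal cells.

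Of 7 genes for IGF mRNA binding proteins and neighbouring noncoding RNAs, 5 were tested and 0 passed by edgeR in any of these 4 comparisons. Between MMTVRANK lineages 2 had an unadjusted edgeR p under 0.05 (42.3% of all genes), DESeq2 called 2 (37.6% of all genes) and limma-voom 1 (34.7%), and between WT lineages limma-voom called 1 (38.8%). Igf2bp2 had 1.99 (SE 0.93, edgeR adjusted p = 0.116) in WT and 2.72 (SE 0.97, edgeR adjusted p = 0.0504) in MMTVRANK, luminal over basal. Airn, the noncoding RNA that runs against Igf2r and silences its paternal copy in most tissues, had −0.49 (SE 0.50) in WT lineages, where Igf2r was higher in luminal cells. H19, the maternally expressed neighbour of Igf2, had 2.44 (SE 1.07, edgeR adjusted p = 0.392) between luminal genotypes.

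The genes most like each member over the 12 libraries were found by the root mean square difference of log2 CPM, each gene centred on its own mean, among 11115 genes. Igf2r was most like Exoc2 at 0.08 and Metap1 at 0.10, against its own spread of 0.38. Igfbp3 was most like Kcnmb1 at 0.29 and Col7a1 at 0.34 with a spread of 4.22, Igfbp2 most like Spon2 at 0.44 and Myh11 at 0.56 with a spread of 4.64, and Igf1r most like Asap1 at 0.29 and Dennd5b at 0.31 with a spread of 1.5. Igfbp5 was most like Itgb3 at 0.43 and Lcn2 at 0.50, with a spread of 1.92. Igfbp4 was most like Slc12a4 and Pmp22, both at 0.47, and Igfbp7 most like Ramp2 at 0.33 and Cnksr3 at 0.42. Igfbp6 was most like Col6a2 at 0.70, with a spread of 2.27. Igf1 was most like Dapk2 at 1.10, with a spread of 1.77. These are descriptions over libraries whose main difference is lineage.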

How the data were processed

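Reads were aligned with STAR 2.6.1b to GRCm38.p6 and Subread 1.5 was used for counting, per the submitters' processing notes. Values are deposited as raw counts per gene symbol, made by the authors with featureCounts 1.5.2 on GENCODE M17 by largest exon overlap and with no strand option, per the file headers. The library kit keeps strand and takes total RNA, per the labels' protocols.

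Genes were kept by filterByExpr of edgeR 4.0.16 (count minimum 10), which left 18236. All 12 libraries were fitted in 1 quasi-likelihood model with TMM scaling and robust spread over 4 title groups in R 4.3.3. That model held no term for the replicate number, which was added as a block in an alternative. Every adjusted p is Benjamini-Hochberg over all genes tested, with a threshold of 0.05. Each SE was taken from the F statistic and its log2 fold change. RPKM is CPM per kilobase of the deposited exon length. DESeq2 1.42.0 and limma 3.58.1 (voom) were alternatives. The scripts were tested on simulated data. The members and lists were chosen with earlier results of these data known. All members are described; pathway genes were named by smallest p (up to 4 in WT lineages, up to 2 in each genotype comparison), and like genes by the 2 smallest differences at an average log2 CPM of 2 or more. The longest coding sequence was searched per gene.

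Groups share replicate numbers, whose meaning the labels do not give. Over 10082 genes, deviations from group means of same-numbered libraries correlated at 0.525, 0.125 and 0.392 between luminal genotypes, 0.277, 0.168 and 0.343 between WT lineages and 0.278, 0.144 and 0.199 between MMTVRANK lineages, so numbers were read as pairing these, on the data alone. Between basal genotypes they were 0.404, −0.0706 and 0.0915, and numbers were not read as pairing.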

Additional observations from a re-analysis of the deposited data

How the results depend on the processing

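Of 889 member values under alternatives, 841 kept their direction and side of the threshold, 20 passed newly, 8 no longer passed and 20 turned sign, none of the last called. The number of members called between luminal genotypes was 0, but 2 by DESeq2, 2 with no filter on low counts and 1 with the replicate block. It was 0 between basal genotypes but 3 with no filter, and 0 for the difference of effects but 1 by DESeq2 and 4 with no filter. The cause was not tested. The block changed no other member's call. With single libraries left out, 7 to 8 members were called in WT lineages, 6 to 8 in MMTVRANK lineages and 0 elsewhere. Over all genes, 5776 to 6898 were then called in WT lineages and 4612 to 6415 in MMTVRANK lineages. With no filter, 1353 genes were called between luminal genotypes, against 46 as reported, 800 by DESeq2, 29 by limma-voom, 103 with the block and 7 with only the groups compared; single libraries left out gave 3 to 93. For basal genotypes the counts were 349 with no filter, 66 by DESeq2 and 1 as reported, and for the difference 776, 140 and 1. Values that turned sign were, with library size only, Igf1r at 0.0233 between luminal and Igf2r at −0.0566 between basal genotypes, and without both WT replicate 2 libraries Igf2r at −0.0109 between basal genotypes. With single libraries left out, values that crossed 0 ran between luminal genotypes from −0.53 to 0.27 for Igf1r, −1.58 to 0.0118 for Igfbp4, −0.92 to 2.53 for Igf1, −0.0027 to 1.12 for Igfbp3 and −0.33 to 1.42 for Igfbp6. Between basal genotypes they ran from −0.0127 to 0.16 for Igf2r, −2.83 to 0.23 for Igf1, −2.90 to 0.13 for Igfbp6 and −0.16 to 0.49 for Igfbp4. Igf1 ran from −3.35 to 0.0386 between WT lineages and from −1.07 to 2.11 between MMTVRANK lineages. For the difference of effects Igfbp3 ran from −0.54 to 0.58 and Igf1r from −0.16 to 0.64. In MMTVRANK lineages Igf2r was 0.50 with only the groups compared (adjusted p = 0.0524), where Igfbp6 passed at −2.96. Luminal Igfbp2, Igfbp3 and Igf2 counts limit their fold changes.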
